A study of Mus musculus with 6 samples.

Results

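The genes examined here encode proteins that hold epithelial cells together at tight junctions or sit on the surface of epithelial cells. They are the claudins Cldn1, Cldn3, Cldn4, Cldn7 and Cldn8, occludin (Ocln), the scaffold ZO-1 (Tjp1), the adhesion molecule JAM-A (F11r), and the surface proteins EpCAM (Epcam) and CD24 (Cd24a). Members were taken as the non-control probes of the array whose RefSeq accession belongs to 1 of these 10 genes. Signals were not used to take the probes, but the genes were chosen with earlier results of these data known. This gave 12 probes of the 39429 on the array, with 2 probes each for Cldn4 and Ocln and 1 for each other gene. Of the 12 probes, 11, covering 9 of the 10 genes, lay well above background on at least 3 arrays and were tested among 23460 genes or unnamed transcripts. Cldn8 did not reach that minimum and is given by its measured signals only.

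The HFD group held 3 female Trp53-/- mice fed a high-fat diet (HFD), and the CD group held 3 female Trp53-/- mice fed a control diet (CD). Mice were assigned to a diet at random at 3 weeks of age, ate it for 5 weeks and were 8 weeks old when the mammary glands were taken. All 6 mice carried the Trp53 knockout, so no values here come from mice with Trp53. Total RNA of each sample was labelled with the dye Cy3 and hybridised to 1 single-colour Agilent mouse array. The labels name mammary glands as the source, while the sample descriptions speak of mammary epithelial cells exposed to the diet, and whether epithelium was enriched before extraction is not given in the sources used here.

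Tight junctions are the seals at the top of the side walls of epithelial cells. Claudins form their strands and set which ions and solutes pass between cells, occludin and junctional adhesion molecules lie in or beside the strands, and ZO proteins tie both to the actin cytoskeleton. In the mammary gland these junctions separate the luminal space, later the milk, from the tissue fluid. EpCAM and CD24 are cell surface proteins used to sort mammary epithelial cells from stroma, and low Cldn3, Cldn4 and Cldn7 are the hallmark of the claudin-low class of breast tumours.

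All 9 genes that could be tested had a higher mean on the HFD arrays than on the CD arrays. Of the 9, 0 passed an adjusted p of 0.05 in limma, a linear model that draws the spread of each gene toward a common value. Over all genes 0.0171% passed in either direction and 0% as higher in HFD, and over all probes 0.0174% passed. The differences ran from 0.11 for Ocln to 0.79 for Epcam on the log2 scale, with a median of 0.37 over the 9 genes and -0.01 over all genes tested. Of all genes, 49% had a positive difference. At an unadjusted p under 0.05, 3 of the 9 genes (Epcam, Cldn4 and Cd24a) had higher values in HFD, where 5.88% of all genes did and 7.46% had lower values at that p. With array weights, which give less weight to arrays that deviate from their group, 6 of the 9 genes passed as higher in HFD. Over all genes 5408 of 23460 passed with these weights, of which 2568 were higher in HFD. The weights come from the same data and ran from 0.34 for CD replicate 1 to 4.69 for CD replicate 3. With the slide of each array as a block, 0 of the 9 genes passed and 5 had a positive difference. Levels below are the log2 processed signal minus the log2 of the 75th percentile of the array. Values for a diet run from replicate 1 to 3, and differences are HFD minus CD with n = 3 mice each. With 3 mice against 3, an exact permutation test of a single gene cannot go below a two-sided p of 0.1, so the tests rest on limma.

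**Figure D1:**
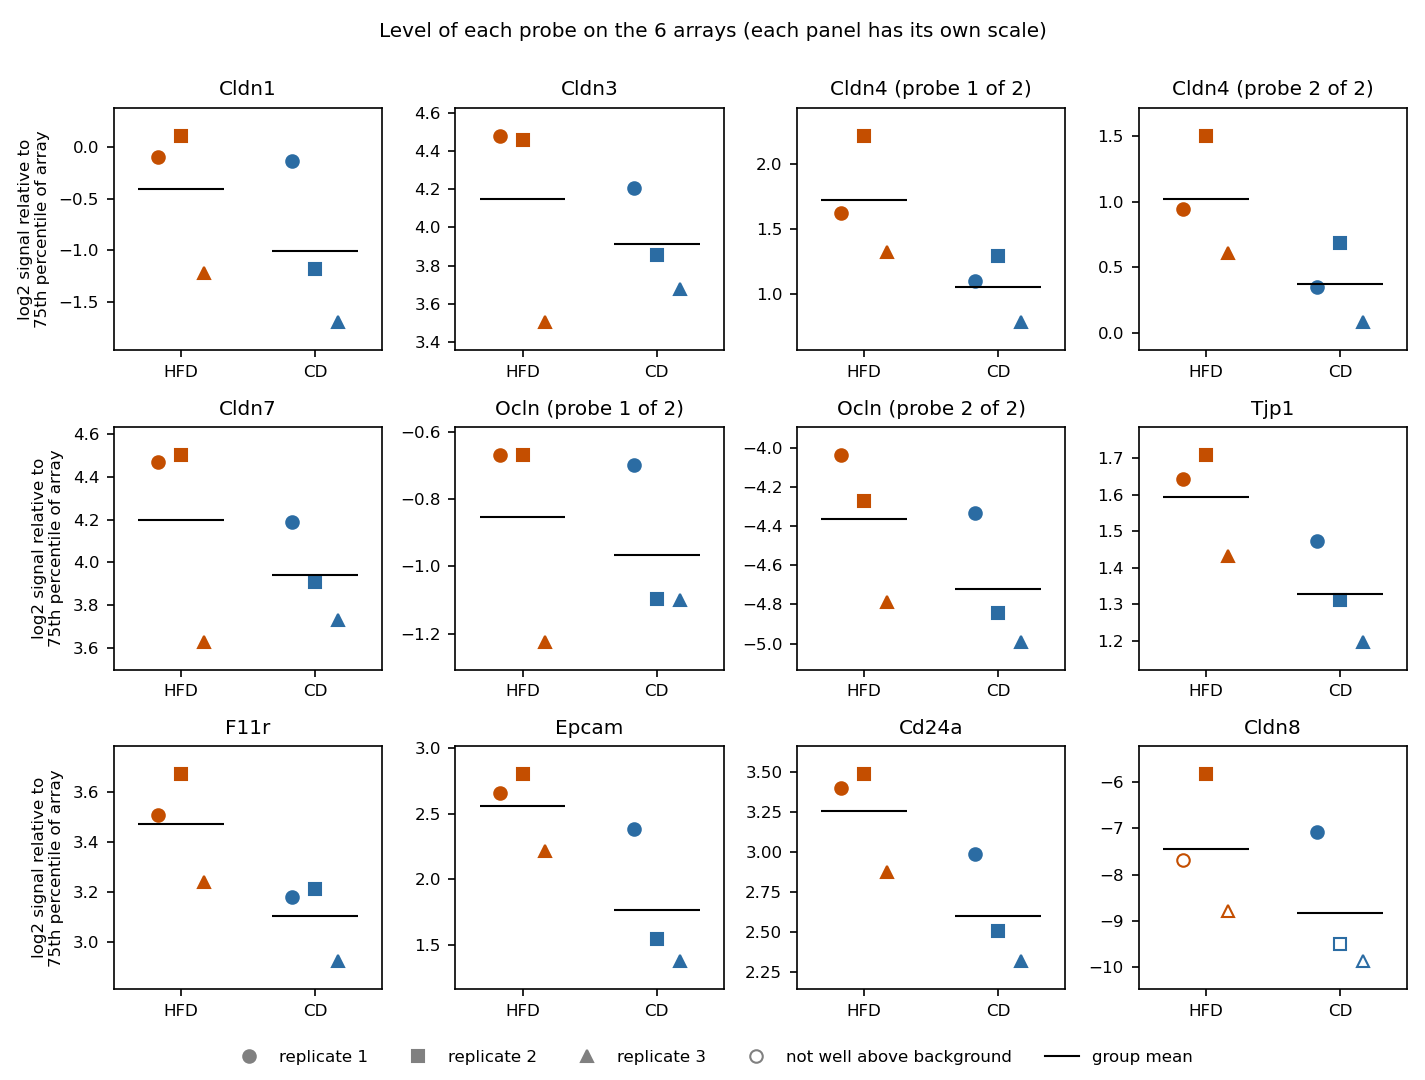
Level of each of the 12 probes (y axes: log2 processed signal relative to the 75th percentile of the array) on the 3 HFD and 3 CD arrays, with points for arrays and lines for group means. HFD replicate 3 is the lowest HFD point and CD replicate 3 the lowest CD point for all 9 genes tested, and the 4 hollow Cldn8 points were not well above background.

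The claudins come first. Cldn4 (NM_009903) encodes a claudin of simple epithelia that binds the enterotoxin of Clostridium perfringens. Its level was 1.63, 2.22 and 1.33 on the HFD arrays, against 1.10, 1.30 and 0.78 on the CD arrays. All 3 HFD values lay above all 3 CD values, the closest pair being HFD replicate 3 and CD replicate 2. The means were 1.72 ± 0.46 in HFD and 1.06 ± 0.26 in CD (SD, n = 3 each), a log2 difference of 0.67 (SE 0.26) or 1.59-fold with a 95% interval of 1.02 to 2.46. It did not pass (adjusted p = 0.368 in limma). The second Cldn4 probe read 0.95, 1.51 and 0.61 in HFD, against 0.35, 0.68 and 0.08 in CD. Here HFD replicate 3 fell between CD replicates 1 and 2, so the diets overlapped, and the difference was 0.65 (SE 0.27, adjusted p = 0.363 in limma over all probes). Both Cldn4 probes therefore gave nearly the same difference, and they share the same 6 RNA samples.

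Cldn3 (NM_009902) and Cldn7 (NM_016887) encode claudins of the same simple epithelia, Cldn7 lying also on the side walls, where it binds EpCAM. Cldn3 had levels of 4.48, 4.46 and 3.50 in HFD, against 4.21, 3.86 and 3.68 in CD. Cldn7 had levels of 4.47, 4.50 and 3.63 in HFD, against 4.19, 3.91 and 3.73 in CD. For both genes, HFD replicates 1 and 2 lay above every CD array and HFD replicate 3 lay below every CD array. The Cldn3 means were 4.15 ± 0.56 in HFD and 3.91 ± 0.27 in CD (SD, n = 3 each), with a difference of 0.23 (SE 0.30) and an interval of -0.50 to 0.97. The Cldn7 means were 4.20 ± 0.49 in HFD and 3.94 ± 0.23 in CD (SD, n = 3 each), with a difference of 0.26 (SE 0.27) and an interval of -0.40 to 0.91. Neither difference passed (adjusted p = 0.723 for Cldn3 and 0.666 for Cldn7 in limma).

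Cldn1 (NM_016674), the claudin needed for the water barrier of mouse skin, had the widest spread among the tested members. Its level was -0.10, 0.11 and -1.22 in HFD, against -0.14, -1.18 and -1.70 in CD. CD replicate 1 lay beside HFD replicates 1 and 2, and HFD replicate 3 lay beside CD replicate 2. The means were -0.40 ± 0.71 in HFD and -1.01 ± 0.79 in CD (SD, n = 3 each), and the interval of the difference of 0.60 (SE 0.50) ran from -0.61 to 1.81 (adjusted p = 0.590 in limma).

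Cldn8 (NM_018778), a claudin best known from the distal nephron, was detected on 2 of the 6 arrays. Its probe was well above background on HFD replicate 2 and on CD replicate 1 and on none of the other 4 arrays. The measured levels were -7.68, -5.83 and -8.78 in HFD, against -7.08, -9.50 and -9.87 in CD. The dimmest probe counted as well above background lay between -7.87 and -6.83, depending on the array, so the values of the other 4 arrays set only a bound, and no fold or test is given.

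The promoters of Cldn4 and Cldn7 are shown because Cldn4 had the largest difference among the claudins and Cldn7 was the claudin whose pattern over the 6 arrays lay closest to the mean of the members. RefSeq windows from 250 bases before to 50 bases after a start site (GRCm38.p6) were found for 8 of the 10 members, namely F11r, Cldn4, Cldn3, Tjp1, Cldn7, Ocln, Cldn1 and Epcam, in 10 windows, since Cldn7 and Ocln have 2 starts each. Cldn8 and Cd24a are named only. The windows were searched on both strands for CACGTG, the E-box bound by MYC and other factors, for AACCGG, the core of a grainyhead element, and for GGGCGG, a GC box. No motif overlaps another. Below, each run holds the 250 bases before a start, 5′ to 3′ on the strand of the gene, with matches on either strand in capitals. The Cldn4 run is chr5:134946935-134947184 on the minus strand, and the Cldn7 run, for the second of its starts, is chr11:69965171-69965420 on the plus strand.
Cldn4: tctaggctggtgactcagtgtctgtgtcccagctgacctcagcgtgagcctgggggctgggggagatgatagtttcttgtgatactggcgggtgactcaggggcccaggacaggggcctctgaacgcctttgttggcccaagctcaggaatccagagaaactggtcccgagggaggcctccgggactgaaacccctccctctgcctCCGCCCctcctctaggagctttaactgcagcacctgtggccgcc
Cldn7: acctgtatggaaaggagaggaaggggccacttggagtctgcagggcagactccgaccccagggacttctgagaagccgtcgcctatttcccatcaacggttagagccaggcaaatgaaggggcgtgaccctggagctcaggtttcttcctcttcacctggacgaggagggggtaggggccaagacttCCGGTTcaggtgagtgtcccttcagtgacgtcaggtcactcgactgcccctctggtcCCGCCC
The capitals in Cldn4 mark a GC box with its first base at position -44 from the start, and a further GC box at position -5 runs across the start. In Cldn7 the capitals mark the grainyhead core on the opposite strand, at position -63, and a GC box at position -6. GC boxes were found in 9 of the 10 windows of the members and in 35.7% of all 32851 windows in the table. The grainyhead core was found in windows of Cldn7 and Ocln and in 6.83% of all windows. A match is a string of letters and says nothing on whether a factor binds there.

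The partners of the claudins in the junction came next. Ocln (NM_008756) encodes occludin, a membrane protein of the strands. Its level was -0.67, -0.67 and -1.22 in HFD, against -0.70, -1.10 and -1.10 in CD. HFD replicates 1 and 2 lay close to CD replicate 1, and HFD replicate 3 was the lowest of the 6 arrays. The means were -0.85 ± 0.32 in HFD and -0.97 ± 0.23 in CD (SD, n = 3 each), with the smallest difference of the 9 genes at 0.11 (SE 0.21, interval -0.39 to 0.62, adjusted p = 0.811 in limma). The second Ocln probe read -4.04, -4.27 and -4.79 in HFD, against -4.34, -4.84 and -4.99 in CD. Its difference was 0.36 (SE 0.26, adjusted p = 0.524 in limma over all probes), so the 2 probes shared a sign but not a size, and on this probe HFD replicate 3 lay just above CD replicates 2 and 3. The Ocln window that holds a grainyhead core, for the second of its starts, is shown for comparison with that of Cldn7. It is chr13:100552499-100552748 on the minus strand (GRCm38.p6), with the core and a GC box in capitals at positions -86 and -43, and a further GC box of the gene lies before its first start.
Ocln: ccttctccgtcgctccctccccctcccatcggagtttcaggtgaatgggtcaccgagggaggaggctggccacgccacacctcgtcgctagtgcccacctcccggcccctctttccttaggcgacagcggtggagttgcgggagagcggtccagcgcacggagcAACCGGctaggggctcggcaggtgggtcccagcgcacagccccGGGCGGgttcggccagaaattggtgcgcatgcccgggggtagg

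Tjp1 (NM_009386) encodes ZO-1, the scaffold under the strands. It had levels of 1.64, 1.71 and 1.43 in HFD, against 1.47, 1.31 and 1.20 in CD. HFD replicate 3 lay just below CD replicate 1, and every other HFD value lay above every CD value. The group means were 1.59 ± 0.14 in HFD and 1.33 ± 0.14 in CD (SD, n = 3 each), the narrowest spread among the members. The difference of 0.27 (SE 0.14, interval -0.07 to 0.60) did not pass (adjusted p = 0.422 in limma).

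F11r (NM_172647) encodes JAM-A, an immunoglobulin-like adhesion molecule of the junction. Its level was 3.51, 3.67 and 3.24 in HFD, against 3.18, 3.21 and 2.93 in CD. Every HFD value lay above every CD value, with a gap as narrow as that between HFD replicate 3 and CD replicate 2. The means were 3.47 ± 0.22 in HFD and 3.11 ± 0.16 in CD (SD, n = 3 each), and the difference of 0.37 (SE 0.16, interval -0.02 to 0.76) did not pass (adjusted p = 0.382 in limma). F11r and Cldn4 were the 2 of the 9 genes whose diets did not overlap with HFD on top, where 8.47% of all genes showed that and 8.75% showed the reverse. One Cldn4 probe and the F11r probe were 2 of 11 probes without overlap, where 9.25% of all probes were.

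The surface proteins had the largest differences beside Cldn4. Epcam (NM_008532) encodes an adhesion protein of epithelial cells that binds claudin-7 and protects it from breakdown in the gut epithelium of mice. Its level was 2.65, 2.80 and 2.22 in HFD, against 2.39, 1.55 and 1.38 in CD. CD replicate 1 lay within the HFD range, while CD replicates 2 and 3 lay well below every HFD array. The means were 2.56 ± 0.30 in HFD and 1.77 ± 0.54 in CD (SD, n = 3 each), a difference of 0.79 (SE 0.30) or 1.73-fold with an interval of 1.04 to 2.87, and it did not pass (adjusted p = 0.360 in limma).

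The Epcam promoter is shown as that of the member with the largest difference and the only member window of the 8 genes with a CACGTG. The run before the start is chr17:87635729-87635978 on the plus strand (GRCm38.p6), with a GC box in capitals at position -58. The E-box lies after the start, with its first base at position 31, and is shown as a fragment of 30 bases, chr17:87635997-87636026.
Epcam: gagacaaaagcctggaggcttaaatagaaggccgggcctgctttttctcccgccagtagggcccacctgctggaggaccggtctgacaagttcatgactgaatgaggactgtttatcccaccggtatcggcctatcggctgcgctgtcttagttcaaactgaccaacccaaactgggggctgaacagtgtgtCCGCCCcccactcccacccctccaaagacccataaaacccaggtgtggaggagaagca
Epcam E-box: ggactgattctgCACGTGagacctgcggcg
CACGTG was found in 7.15% of all windows, and its presence here says nothing on binding by MYC.

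Cd24a (NM_009846) encodes a heavily glycosylated protein anchored to the membrane by a lipid, which in the mouse mammary gland is higher on luminal than on basal cells. Its level was 3.40, 3.48 and 2.88 in HFD, against 2.98, 2.50 and 2.32 in CD. HFD replicate 3 lay between CD replicates 1 and 2, and the other 2 HFD arrays lay above all CD arrays. The means were 3.25 ± 0.33 in HFD and 2.60 ± 0.35 in CD (SD, n = 3 each). The difference of 0.65 (SE 0.24), or 1.57-fold with an interval of 1.05 to 2.36, had the lowest adjusted p of the members and did not pass (adjusted p = 0.356 in limma).

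The 9 genes shared much of their order over the arrays. HFD replicate 3 was the lowest HFD array for 9 of 9 genes and CD replicate 3 the lowest CD array for 9 of 9. For Ocln, CD replicates 2 and 3 both rounded to -1.10. CD replicate 1 was the highest CD array for 7 of 9, the exceptions being Cldn4 and F11r, where CD replicate 2 was higher. HFD replicates 1 and 2 lay above all CD arrays for 9 of 9 genes, whereas HFD replicate 3 lay below CD replicate 1 for 7 of 9. The shares of all genes with these orders were not computed, so the counts are a description. After each gene was centred on its mean over the 6 arrays, the mean of the 9 genes was 0.37, 0.51 and -0.22 in HFD, against 0.11, -0.26 and -0.50 in CD. The distance of a gene from this mean pattern, as the mean absolute difference over the 6 arrays, ran from 0.101 for Cldn7 to 0.335 for Cldn1, with a median of 0.378 over all genes tested. The mean pattern was built from these 9 genes, so these distances are a description.

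Slide and scan moved with this order in part. HFD replicate 1 was alone on the first slide, HFD replicates 2 and 3 shared the second with CD replicate 1, and CD replicates 2 and 3 were on the third. Each slide was scanned once. Within the second slide, the sole one with both diets, HFD replicate 2 exceeded CD replicate 1 for 9 of 9 genes, by 1.12 for Cldn4, 0.50 for Cd24a and 0.49 for F11r at the upper end and by 0.03 for Ocln at the lower. HFD replicate 3 exceeded CD replicate 1 only for Cldn4, by 0.23, and F11r, by 0.06. For the other 7 genes it lay lower, with differences from -0.04 for Tjp1 to -1.08 for Cldn1. Each of these sets 1 mouse against 1 mouse, and the shares over all genes were not computed, so the counts are a description. With slide as a block, which leaves these 3 arrays to set the estimate, the median of the 9 genes was 0.097. The difference was 0.67 for Cldn4, 0.27 for F11r, 0.20 for Cd24a, 0.12 for Epcam and 0.10 for Tjp1, and those of Cldn1 (-0.42), Cldn3 (-0.22), Cldn7 (-0.12) and Ocln (-0.25) were negative.

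**Figure D2:**
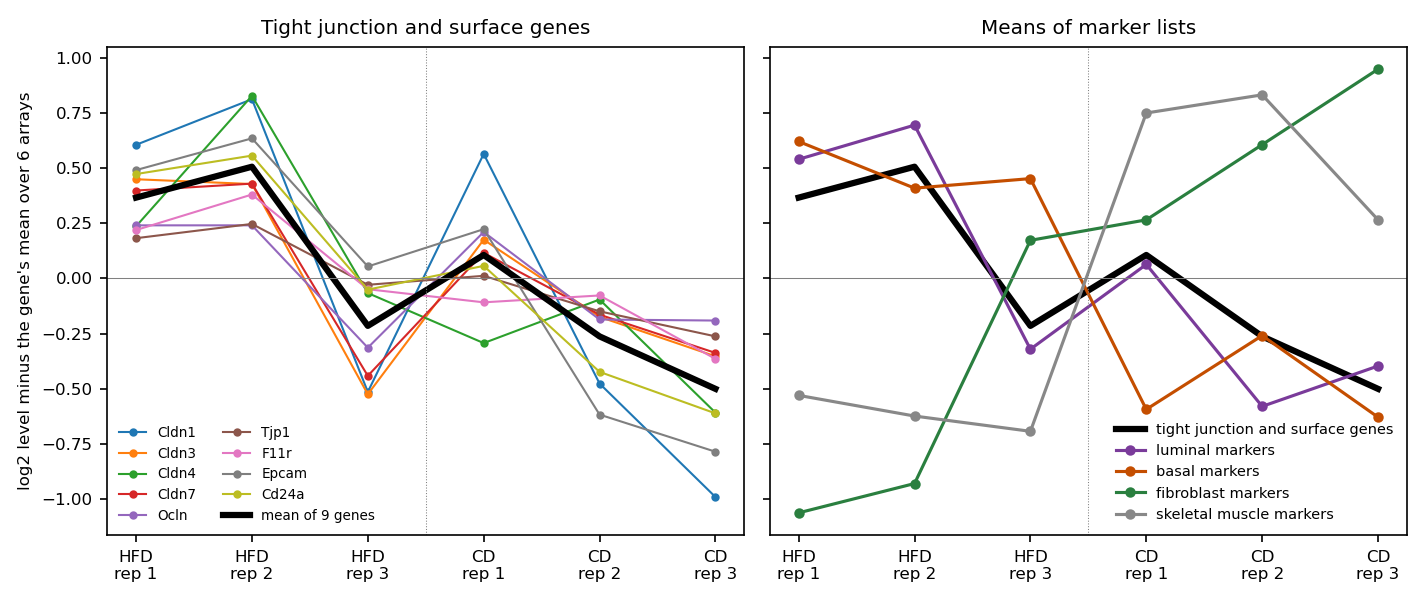
Left, log2 level of each of the 9 tested genes on each array minus the mean of that gene over the 6 arrays, with the mean of the 9 genes in black; right, that mean beside the means of 4 marker lists. HFD replicates 1 and 2 are the 2 highest arrays for the black line (0.37 and 0.51), CD replicate 1 is at 0.11 and HFD replicate 3 at -0.22.

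Markers of the cell types that a gland can hold were measured on the same arrays. Of the 10 luminal markers, 9 had higher means in HFD, and their mean level was 1.15, 1.31 and 0.29 in HFD, against 0.67, 0.03 and 0.21 in CD. By this mean level, as for the junction genes, HFD replicates 1 and 2 were highest, CD replicate 1 came next and HFD replicate 3 lay below it. The luminal keratins Krt8, Krt18 and Krt19 did not share that order. By their mean, CD replicate 2 (5.29) came next, with CD replicate 1 (4.95) and HFD replicate 3 (4.94) nearly level. The summed signal of the 10 luminal markers ranged from 240 to 474 in HFD, against 199 to 299 in CD, in multiples of the 75th percentile of the array. Most of this sum is Krt18, with a mean log2 level of 8.08 in HFD and 7.57 in CD. Krt8, the next highest, had means of 5.44 and 4.46. Krt8, the most used luminal keratin, had a difference of 0.98 (SE 0.42), and 0 of the 10 passed the test. Basal markers had higher means in HFD for 8 of 8 genes, with a summed signal of 219 to 260 in HFD, against 96.0 to 149 in CD, and their mean level was as high on HFD replicate 3 (2.85) as on HFD replicate 2 (2.80).

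Fibroblast markers ran the other way, with lower means in HFD for 7 of 7 genes and a summed signal of 171 to 439 in HFD, against 390 to 652 in CD. Their mean level was 3.44, 3.57 and 4.68 in HFD, against 4.77, 5.11 and 5.45 in CD, so HFD replicate 3 came close to CD replicate 1. Skeletal muscle markers had a summed signal of 2.64 to 4.16 in HFD, against 4.55 to 7.05 in CD, with lower means in HFD for 4 of 5 genes. Acta1 differed by 0.01, Tnnc2 by -2.40 and Tnnt3 by -2.20, and Mylpf was well above background on 1 of 3 HFD arrays and 3 of 3 CD arrays. Adipocyte markers had a summed signal of 3.06 to 7.40 in HFD, against 4.05 to 6.96 in CD, with higher means in HFD for 6 of 8 genes and lower means for 2. Most of this sum is Fabp4, with a mean log2 level of 1.43 in HFD and 1.31 in CD, and Lpl (0.92 and 1.48). The other genes tested in the list were dim, with group means between -6.99 (Adipoq in CD) and -4.61 (Plin4 in HFD), so the sum says little on them. In this list Adipoq was well above background on 3 of 3 HFD and 2 of 3 CD arrays, and Cidec on 2 of 3 HFD and 3 of 3 CD arrays. B cell markers summed to 0.130 to 0.177 in HFD, against 0.099 to 0.158 in CD, with Ms4a1 not tested. Endothelial markers summed to 11.97 to 21.48 in HFD, against 12.54 to 20.95 in CD, with higher means in HFD for 4 of 7 genes. Leukocyte markers summed to 8.19 to 10.3 in HFD, against 8.47 to 13.4 in CD (2 of 5 genes with a higher mean), and keratinocyte markers to 2.27 to 3.68 in HFD, against 1.74 to 3.98 in CD (2 of 4 genes). The part of any of these lists in the differences of the junction genes was not tested. In RNA from a tissue, fewer cells of a type and less RNA per cell cannot be told apart.

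Set against the luminal keratins Krt8, Krt18 and Krt19, whose mean level was 5.86, 6.25 and 4.94 in HFD and 4.95, 5.29 and 4.63 in CD, 8 of the 9 genes had a negative difference. The exception was Epcam (0.06), with Cldn4 (-0.06) and Cd24a (-0.07) near it. Cldn1 followed at -0.12, F11r at -0.36, Tjp1 at -0.46, Cldn7 at -0.47, Cldn3 at -0.49 and Ocln at -0.61. The median was -0.36 for the 9 genes and -0.73 for all genes, because this scaling lowers every HFD level by the keratin difference. None of the 9 genes passed the test on this scale (lowest adjusted p = 0.383 in limma). On this scale limma gave each of the 9 genes the same SE (0.54), so passing depended on the size of the difference alone.

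**Figure D3:**
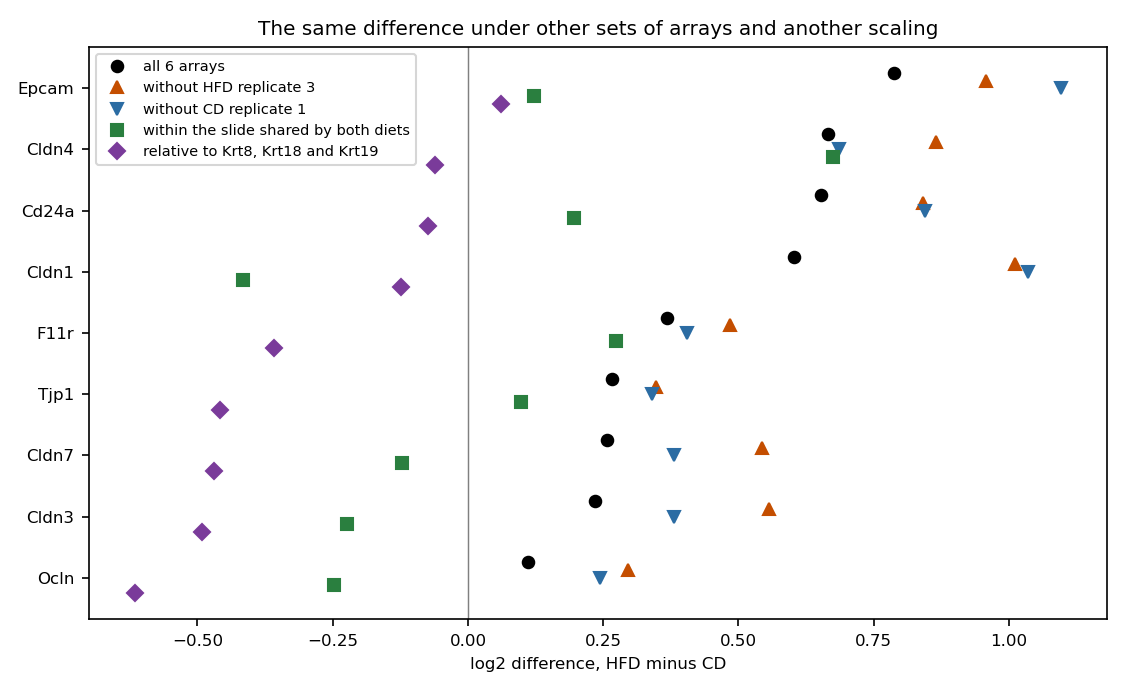
Log2 difference, HFD minus CD, of each tested gene with all 6 arrays, without HFD replicate 3, without CD replicate 1, within the slide that holds both diets, and relative to the mean of Krt8, Krt18 and Krt19. The points without either array all lie above 0, while 4 genes lie below 0 within the shared slide and 8 relative to the keratins.

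The other genes of the junction were taken as lists. Of 17 other claudins, 13 could be tested, and 0 of the 13 passed. They had positive differences for 4 and negative ones for 9 genes, with a median of -0.12. Cldn6, an embryonic claudin, averaged -0.45 ± 0.48 in HFD and 0.16 ± 0.24 in CD (SD, n = 3 each). It had the lowest adjusted p of the list (0.384 in limma), with a difference of -0.61. Cldn23 differed by 0.55 (SE 0.28) and Cldn11, the claudin of myelin, by -0.57 (SE 0.36), the Cldn11 probe being well above background on 2 of 3 arrays of each diet. Cldn5, the claudin of endothelium, differed by -0.12 (SE 0.75), with levels of -2.62, -0.23 and -1.80 in HFD and -2.61, -1.12 and -0.56 in CD. Of the 13 genes, 7 were well above background on all 6 arrays. With a normexp background the median of this list was 0.47, against 0.31 for the 9 genes above.

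Among 27 other tight junction genes, 20 had positive and 7 had negative differences. Their median was 0.25, and 0 passed. It was 0.042 with slide as a block and ran from 0.098 without HFD replicate 2 to 0.51 without HFD replicate 3. Prkci, the atypical protein kinase C of the polarity complex, had levels of 3.71, 3.67 and 3.35 in HFD, against 3.04, 3.15 and 3.00 in CD. Its HFD values all lay above its CD values, with a difference of 0.52 (SE 0.14, adjusted p = 0.282 in limma). Mpp5, the polarity scaffold also called PALS1, differed by 0.75 (SE 0.24), and Mpdz, a scaffold with many PDZ domains, by 0.54 (SE 0.17), both without overlap between the diets. Prkci, Mpp5 and Mpdz were named for their small p, so their lack of overlap is a description. Over all genes, 8.47% had every HFD value above every CD value. Lsr, the angulin of tricellular junctions, differed by 0.37 (SE 0.20). Jam2, a junctional adhesion molecule of endothelium, ran the other way, with levels of 0.08, 0.32 and 1.76 in HFD, against 2.08, 2.01 and 2.23 in CD. HFD replicate 3 lay nearer to the CD arrays than to the other HFD arrays, and the difference was -1.39 (SE 0.43, adjusted p = 0.316 in limma). Without HFD replicate 3 it passed, at -1.91 (adjusted p = 0.042 in limma). In that fit 37 of 23460 genes passed, against 4 with all 6 arrays. Jam2 too was named for its small p, so its values are a description. A second probe of Jam2 gave -0.94 with all 6 arrays.

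All 8 measured genes of the other epithelial surface list had positive differences, with a median of 0.61 (0.12 with slide as a block), and 0 passed. Fxyd3, a regulator of the sodium pump, had levels of 0.30, 0.84 and 0.74 in HFD, against -0.28, -0.44 and -0.91 in CD. The diets did not overlap, and the difference of 1.17 (SE 0.23) had an adjusted p of 0.207 in limma. Fxyd3 too was named for its small p, and 8.47% of all genes lay higher in HFD without overlap. St14, which encodes the surface protease matriptase, differed by 0.66 (SE 0.27), and Cdh1, which encodes E-cadherin, by 0.56 (SE 0.23).

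Of 11 epithelial transcription and splicing factors, 10 had positive differences, with a median of 0.26, and 0 passed. That median was 0.082 without HFD replicate 2, 0.51 without HFD replicate 3 and -0.21 with slide as a block. Grhl2, a grainyhead factor that drives Cldn4 and Cdh1 in mouse epithelia, had levels of 1.12, 1.10 and 0.61 in HFD, against 0.75, 0.38 and 0.30 in CD. HFD replicate 3 lay below CD replicate 1, and the difference was 0.47 (SE 0.20, adjusted p = 0.378 in limma), while a second probe of the gene gave 1.25. Elf5, a factor of luminal progenitors and milk-producing cells, differed by 1.11 with an SE of 0.94, and Esrp2, an epithelial splicing factor, by 0.26 (SE 0.18).

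**Figure D4:**
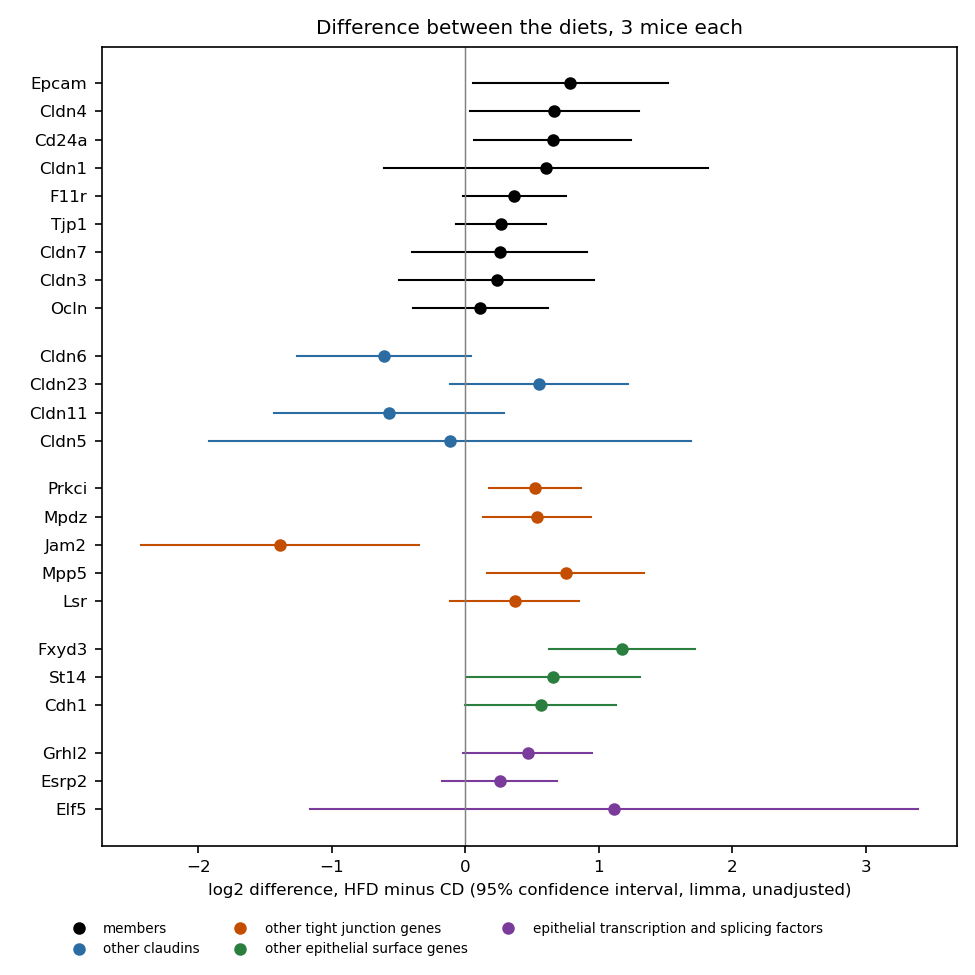
Log2 difference, HFD minus CD, with its unadjusted 95% confidence interval from limma, for the 9 tested genes (marked members) and the named genes of 4 other lists, 3 mice per diet. All 9 points of the members lie right of 0, the intervals of Epcam, Cldn4 and Cd24a do not reach 0, and Jam2 lies farthest to the left at -1.39.

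The genes outside these lists whose centred levels lay closest to the mean of the 9 genes were Ppp1r26, with a mean absolute difference of 0.038 over the 6 arrays, Hip1r (0.046), Cdkl2 (0.048), Ogfrl1 (0.048), Tspyl5 (0.048) and Pcdh20 (0.053). They were picked from all named genes for that likeness, so their closeness is a description. With quantile normalization 3 of these 6 genes were again among the 6 closest, and with a normexp background 0 were.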

How the data were processed

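Gene expression was measured in 6 mice, 3 on HFD and 3 on CD, with groups and replicate numbers from the labels. Per the file headers, spots were read by Agilent Feature Extraction 11.0.1.1. The deposited files of each array give linear intensity per spot, as a processed signal with background removed and as medians of spot and background. The deposited table of values holds intensity for 30608 probes, and 99.9% of its entries equal the processed signal divided by about the 75th percentile of that array, within 1% of 1 common ratio. Its column medians were 0.134, 0.134 and 0.137 in HFD and 0.134, 0.140 and 0.134 in CD. It was neither logged nor centred.

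Control and outlier spots were removed and replicate spots of a probe averaged. Of 39429 probes, 111 lacked usable spots on some array and were dropped. Levels are log2 processed signal minus the log2 of the 75th percentile of the array (1326 to 1973 intensity units before the log). Between 27203 and 29412 probes were well above background per array, and 0 spots were saturated. The number of arrays limits the precision. Probes well above background on at least 3 arrays were kept (28689), and the probe with the highest mean stood for a gene (23460 genes or unnamed transcripts). Probes were named through RefSeq accessions, with 1 symbol for 27346. Coordinates are given for promoters only, from the RefSeq table on GRCm38.p6.

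The comparison of HFD with CD used lmFit and eBayes of limma 3.58.1 (R 4.3.3) without covariates. Tests were two-sided, with Benjamini-Hochberg adjustment over all genes or all probes and a threshold of 0.05. Intervals are 95% and unadjusted. The method was tested on simulated data with independent noise for each gene and array, so that test does not cover slides or deviations that genes share on an array. Tables and figures were made with Python 3.11.15, pandas 2.3.3 and matplotlib 3.10.9. Members and lists were chosen with earlier results of these data known. Named genes were the members, up to 5 of each pathway list by smallest p, a few set genes (such as Cdh1, Lsr, Grhl2 and Cldn5) and the 6 genes closest in pattern; the text names a selection, and some genes are not reported here. Marker lists were luminal, basal, fibroblast, endothelial, leukocyte, B cell, adipocyte, skeletal muscle and keratinocyte genes. Alternatives covered scaling, background, filter, floor, probe rule, variance settings, array weights, slide and replicate as blocks, a keratin scaling, the deposited table of values and leaving out each array. The files give median and no mean spot signals, so normexp (offset 50) used the medians.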

Additional observations from a re-analysis of the deposited data

How the results depend on the processing

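Of the tested members, 0 passed and 9 of 9 had a positive difference in the main analysis, in which 4 genes and 5 probes passed in limma (3129 genes at an unadjusted p under 0.05). Leaving out 1 array at a time gave 0 to 37 genes and 0 to 122 probes, the highest without HFD replicate 3, with 0 members passing, 9 of 9 positive and a median of 0.26 to 0.56. Over these, Epcam ran from 0.59 to 1.10, Cldn4 from 0.42 to 0.87, Cd24a from 0.51 to 0.84, Cldn1 from 0.26 to 1.04, Cldn3 from 0.07 to 0.56, Cldn7 from 0.11 to 0.54 and Ocln from 0.02 to 0.30. Elf5 ran from 0.48 to 1.99, Cldn6 from -0.79 to -0.33 and Cldn11 from -0.99 to -0.30. Cldn5 ran from -0.78 to 0.42 and turned positive without HFD replicate 1 (0.42), HFD replicate 3 (0.01), CD replicate 2 (0.04) or CD replicate 3 (0.32).

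The count was 0 genes with quantile normalization (3210 at an unadjusted p under 0.05), 0 genes and 0 probes with normexp (1360 genes), with no filter (3165 genes) and with slide as a block (1232 genes), and 7 genes and 8 probes with the filter on all 6 arrays. Array weights gave HFD replicate 3 a weight of 0.42, CD replicate 1 0.34 and CD replicate 3 4.69. They gave 5408 genes, 2568 of them higher in HFD, and 6847 probes, 3597 of them higher. They passed 6 members: Cldn1 (1.37, adjusted p = 0.041 in limma), Cldn4 (1.01), Tjp1 (0.41), F11r (0.57), Epcam (1.21) and Cd24a (0.99). These weights come from the same data. With slide as a block 5 members were positive, the members' median was 0.097, Epcam was at 0.12 and Cd24a at 0.20, the median of the transcription and splicing factors was -0.21, and the signs turned for Cldn1 (-0.42), Cldn3 (-0.22), Cldn7 (-0.12), Ocln (-0.25; second probe -0.19), Cldn5 (1.60) and Elf5 (-0.51). With normexp the members' median was 0.31 beside 0.21 for all genes and 0.47 for the other claudins, and Cldn11 (0.47) and Cldn5 (0.042) turned.

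Relative to luminal keratins 829 genes and 990 probes passed, 1 member was positive and the median was -0.36. Under this setting limma gave the named genes the same SE (0.54), so passing depended on the size of the difference alone. Beside the members given above, the signs turned for the second probes of Cldn4 (-0.074) and Ocln (-0.37), Cldn23 (-0.18), Prkci (-0.21), Mpdz (-0.19), Lsr (-0.36), St14 (-0.069), Cdh1 (-0.16), Grhl2 (-0.26), Esrp2 (-0.47), Krt18 (-0.22) and Krt19 (-0.033), and Jam2 passed (-2.12, adjusted p = 0.00585 in limma). These follow from subtracting the keratin difference, under which the members' values were Cldn1 -0.12, Cldn3 -0.49, Cldn4 -0.061, Cldn7 -0.47, Ocln -0.61, Tjp1 -0.46, F11r -0.36 and Cd24a -0.073. The cause of the other changes was not tested.

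The replicate numbers do not pair the mice by any label, and the deviations of same-numbered arrays correlated at 0.33, -0.14 and 0.25. With the replicate block 0 genes, 0 probes and 0 members passed (4044 genes at an unadjusted p under 0.05), and the members' median stayed at 0.37. The other settings kept each count they gave within 1.5 times; the mean of probes has no count over probes.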
